A study of Mus musculus with 16 samples.

Results

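P815 is a mouse mastocytoma line, a tumour of mast cells, of the DBA/2 strain and labelled female. Its DNA copy number profile was the array labelled P815, 1 of 16 arrays in the series and the only one from DBA/2. The reference sets were 3 Balb/C lines (CT26 colon, 4T1 breast and Renca kidney carcinomas) and 12 C57BI6 arrays (strain spelled as in the labels). The C57BI6 arrays fell into 8 families: MC38, LL2, B16 (4 arrays of sublines), Hepa1-6, PAN02, TRAMPC (TRAMPC1 and TRAMPC2), EL4 and ID8. All were untreated lines grown in culture, taken once each, with no replicate of P815, and all were set against the same commercial mouse genomic DNA, whose strain and sex are not given in the sources used here.

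In comparative genomic hybridisation, DNA of the line and reference DNA carry different dyes and compete for the same probes. The log2 ratio of line over reference is near 0 where both hold the same number of copies relative to the rest of the genome. A single-copy loss in a diploid genome moves it towards -1, and the loss of every copy leaves only background signal. Mast cells depend on the receptor tyrosine kinase Kit, and mast cell tumours are known for activating Kit mutations. Such point mutations, and the RNA markers by which a mast cell is recognised, are not read by this assay, so the cell type label could not be checked here. Inbred strains also differ in inherited deletions, duplications and single bases. A base difference under a probe can lower its signal as missing DNA does, and these cannot be told apart on this array.

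The P815 array had 238202 probe spots, of which 164 were dropped as outliers. Its line channel was well above background at 99.2% of spots, the lowest share of the 16 arrays, and its reference channel at 99.7%. Noise between neighbouring probes was 0.39 (SD, log2), against a median of 0.32 over the other arrays. Hepa1-6 and PAN02, labelled as different lines, gave close values at most positions (-0.18 and -0.19 at chr1:129543964-160550323, 0.22 in both at chr10:32171775-60189666); counted as 1 family, they left 65 bins and 11111 probes called in the comparisons below of P815 with the other families and with C57BI6, against 77 and 12348 when counted as 2. After centring, 220643 autosomal probes with a value, at a median spacing of 7827 bp on build mm8, described the P815 autosomes. With 1 array of P815, precision is limited by that number; the SE of a segment is over its probes and measures noise along the genome, not the spread between cultures.

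Segments at or above 0.3 were called gains and those at or below -0.3 losses. P815 had 12.02% of autosomal probes in gains and 4.28% in losses, which placed it 12th of the 16 arrays by altered share (16.3%, against 12.4% in LL2 at the low end and 38.8% in Renca at the high end). The 247 autosomal segments held 40 gains, 14 of them 5 Mb or longer, and 83 losses, 4 of them that long. Gains covered 297 Mb and losses 109 Mb. What set the profile apart was depth over short stretches: 57 losses shorter than 5 Mb lay at or below -1, against 46 in Renca and 39 in EL4, the next arrays. Of these 57, 40 were shorter than 200 kb, the median was 111 kb, and 30 lay at or below -2.

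**Figure D1:**
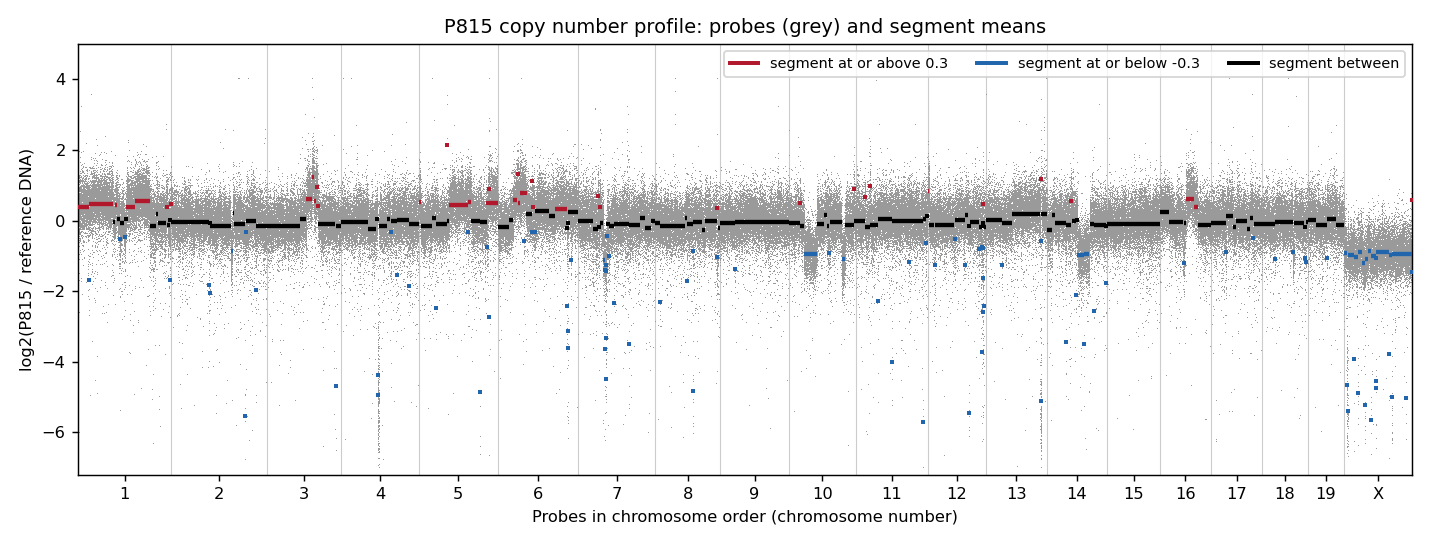
Each grey point is a P815 probe in chromosome order (x axis, autosomes and X) with its log2 ratio of P815 over reference DNA (y axis), and coloured bars or squares are segment means, red at or above 0.3 and blue at or below -0.3. Chromosomes 1, 3, 5, 6 and 16 carry broad red gains, chromosomes 10 and 14 blue losses near -1, and isolated blue squares reach below -4 on several chromosomes and on X.

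Broad gains lay on chromosomes 1, 3, 5, 6 and 16. On chromosome 1, 68.0% of probes were gained. Its highest broad segment was chr1:129543964-160550323 (31.0 Mb) at 0.54 ± 0.010 (SE, 2608 probes), against 0.17 ± 0.019 in Balb/C lines (SD, n = 3) and 0.01 ± 0.22 in C57BI6 families (SD, n = 8). LL2 was the only other family past 0.3 there, at 0.33. The longest, chr1:25784500-77439554 (51.7 Mb), stood at 0.46 ± 0.0080 (SE, 4173 probes), and no other family passed 0.3 there (-0.30 in TRAMPC to 0.28 in B16).

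Chromosome 5 had 42.9% of its probes gained. Its segment chr5:67040824-104688047 (37.6 Mb) stood at 0.44 ± 0.0087 (SE, 3255 probes) in P815, where no other family passed 0.3 (-0.41 in Renca to 0.26 in ID8). Nearer the end of the chromosome, chr5:138752934-152002764 (13.2 Mb) stood at 0.51, and CT26, MC38 and ID8 also passed 0.3 there, MC38 at 0.83.

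Chromosome 6 had 32.3% of its probes gained, in a block of 18.4 Mb (chr6:33680577-52085359) at a mean of 0.66, with a further segment at chr6:112238161-129968813 (0.34). The highest broad gain of P815 was inside that block, at chr6:45368673-52085359 (0.77 ± 0.020, SE, 742 probes, a ratio of 1.70). B16 came close with 0.73, and the other 7 C57BI6 families reached at most 0.31. Chromosome 16 was gained over 26.9 Mb, with chr16:44472353-60556392 at 0.62 ± 0.013 (SE, 1415 probes). Renca, at 0.52, was the only other family past 0.3 there.

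Chromosome 3 held a graded gain of 19.1 Mb (chr3:93054033-112176223), at a mean of 0.72 in P815, against 0.27 in Balb/C lines and 0.10 in C57BI6 families. Its 5 segments ran along the chromosome at 0.60, 1.24, 0.54, 0.94 and 0.40. The peak at chr3:101048565-104256971 (3.21 Mb) stood at 1.24 ± 0.030 (SE, 360 probes), a ratio of 2.36. The other families lay between -0.12 in ID8 and 0.33 in 4T1 there, so P815 stood clear of all 11. The 2 longest runs of probes each at or above 1 on the whole array were within this peak (20 probes at 1.61 and 19 at 1.53).

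The other 4 gains shorter than 5 Mb with a mean of at least 1 were less particular in their values. At chr6:40989681-41487803, P815 stood at 1.32 ± 0.059 (SE, 64 probes) beside 1.27 in B16 and 0.88 in LL2. At chr5:62046391-62093143 (5 probes), P815 stood at 2.14, and every other family lay between 1.37 and 2.44, so all 12 were high against the reference DNA. At chr6:67091719-67276481, P815 had 1.11 beside 0.81 in B16. At chr13:111051761-111378852, P815 had 1.18 ± 0.10 (SE, 39 probes), against 0.53 in EL4, the next highest. Between that segment and a deep deletion described below lay 36 probes at a mean of -0.58.

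Broad losses were confined, among segments of 5 Mb or longer, to chromosomes 10 and 14. On chromosome 10, chr10:32171775-60189666 (28.0 Mb) was the longest, at -0.94 ± 0.0096 (SE, 2250 probes), and chr10:105509465-112866134 (7.36 Mb) the deepest, at -1.10 ± 0.019 (SE, 588 probes). The other families lay between -0.29 in CT26 and 0.22 in Hepa1-6 at the longer segment and between -0.22 in B16 and 0.27 in Hepa1-6 at the deeper one, and none was past -0.3 in either. On chromosome 14, 2 near-adjoining segments at chr14:61499215-71314227 and chr14:71363875-84134022 stood at -0.98 ± 0.016 and -0.94 ± 0.017 (SE, 1077 and 1027 probes). MC38 (-0.44 and -0.50) and Renca (-0.32 and -0.41) were also past -0.3 there, at a shallower level. These autosomal levels lay close to the P815 median of the X chromosome, -0.97.

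Means of 1 Mb bins were compared between P815 and the other 11 families with limma, in which the lone P815 array is assumed to vary as the other families do. Of 2396 bins, 71 were lower in P815 (2.96%) and 6 higher (0.25%), 77 in all (3.21%), at an adjusted p under 0.05, and 313 had an unadjusted p under 0.05. Inside the broad losses, 46 of 54 bins were called: 24 of 27 and 6 of 6 in the chromosome 10 segments, 9 of 9 and 7 of 12 in those of chromosome 14. None of the 241 bins lying wholly inside a single gain segment of 5 Mb or longer was called. The 6 higher bins were 5 on chromosome 3 and 1 on chromosome 6. All 6 lay within the gained blocks of these chromosomes described above, but not wholly inside a segment of that length. Over chr3:101000001-105000000, P815 averaged 1.12, against 0.16 ± 0.13 in the other families (SD, n = 11; limma adjusted p of 0.00111 to 0.0391 over 4 bins). Leaving out Renca gave 89 called bins, of which 16 were higher, and with normexp background correction none was called (12 had an unadjusted p under 0.05).

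Bins lower in P815 also lay outside the broad losses, some of them in neighbouring groups. Over chr2:116000001-119000000, P815 averaged -0.86, against 0.08 ± 0.12 in the other families (SD, n = 11; 3 bins, limma adjusted p of 0.00226 to 0.0195). Over chr12:18000001-21000000, P815 averaged -1.30, against -0.14 ± 0.22 (SD, n = 11; 3 bins, limma adjusted p of 0.000789 to 0.0391). On chromosome 7, P815 averaged -1.80 over chr7:59000001-62000000, against -0.34 ± 0.22 (SD, n = 11; 3 bins, limma adjusted p of 8.50e-05 to 0.00277). These lie within a stepped loss of 10.9 Mb (chr7:54832578-65748053, mean -1.03). Of its 8 segments, 4 lay between -1.44 and -1.13 and 3 deep stretches at -3.65, -4.48 and -3.33 stood among them, while the last 3.16 Mb stood at -0.43.

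Whole-chromosome medians were small in P815, between -0.22 on chromosome 10 and 0.32 on chromosome 1. On each of the 19 autosomes some family is highest and some lowest, so such a place on a few chromosomes is not in itself a trait of P815. Chromosome 15 separated P815 from every other family: its median was -0.06 in P815, against 0.11 to 0.64 in the other 11, and no P815 probe of chromosome 15 was in a gain or a loss segment. P815 thus lay near the reference level there, and the other 11 families lay above that level. With every array centred on its mode instead of its median, P815 remained lowest there (-0.07, against 0.04 to 0.82). Chromosome 1 was highest in P815 with median centring (0.32, against -0.33 to 0.24), but with mode centring 1 family lay above it. Chromosome 13 (0.10) was highest and chromosome 17 (-0.04) lowest among the 12 families with median centring, and neither order held with mode centring. Chromosome 10 was lowest in P815 with mode centring only (-0.22, against -0.12 to 0.34 in the other 11). None of the bins on chromosomes 1, 15 and 16 was called in the bin comparison. The change to mode centring shifted P815 itself by only -0.0044, and the other arrays by -0.22 in Renca to 0.20 in CT26.

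**Figure D2:**
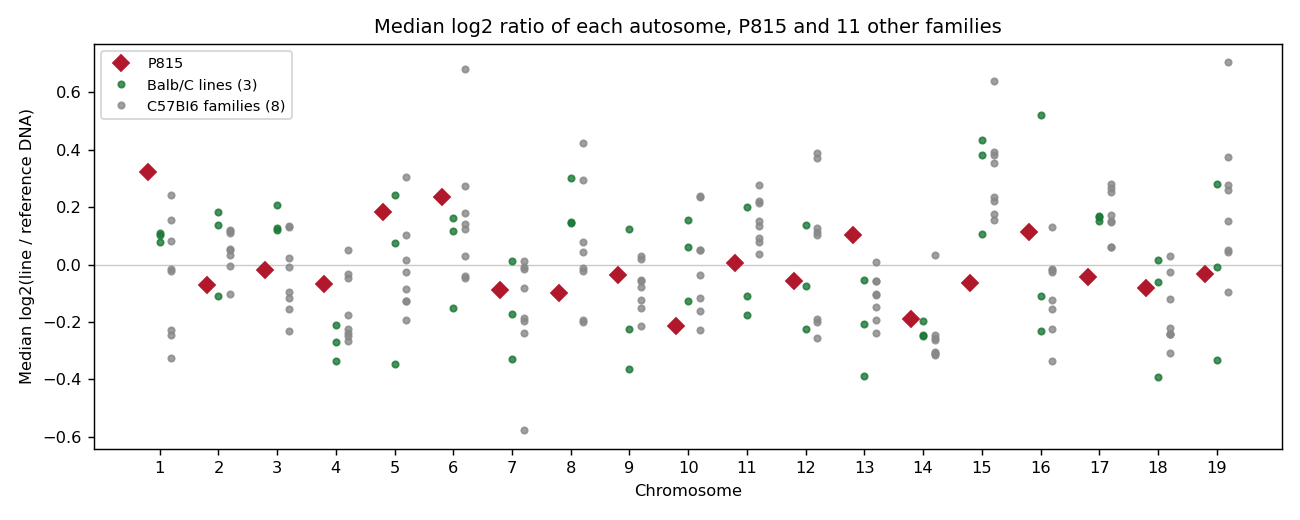
The median log2 ratio (y axis) of each autosome (x axis) is shown for P815 (red diamonds), the 3 Balb/C lines (green) and the 8 C57BI6 families (grey). P815 lies below all others on chromosome 15 (-0.06, against 0.11 to 0.64) and above all others on chromosome 1 (0.32).

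The segment with the lowest autosomal mean was chr11:116564047-116580851 (5 probes) at -5.71, where 2 probes were not well above background in P815 and the Balb/C lines stood at -5.31. In the longer deep losses, most P815 probes were not well above background. The longest was chr4:87985018-90260923 (2.28 Mb, 227 probes), at a mean of -4.77 ± 0.089 (SE). There 183 probes were not well above background in P815, and 218 lay at or below -2. The Balb/C lines had 8 (CT26), 6 (4T1) and 2 (Renca) probes at or below -2 in this interval. Among C57BI6 arrays, LL2 had 24, ID8 13, each of the 4 B16 arrays 11, MC38 5 and EL4 1. Hepa1-6, PAN02, TRAMPC1 and TRAMPC2 had none. In its middle, at chr4:88748620-88759744 (3 probes), P815 stood at -6.09. At those probes CT26, 4T1, MC38, LL2, ID8 and the 4 B16 arrays all lay at or below -5.25. Renca had -1.41 and the other 5 C57BI6 arrays -0.64 to -0.05. These probes were low in 7 of the 12 families, P815 included, and P815 had more low probes around them than any other array.

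Chromosome 4 carries Cdkn2a and Cdkn2b, which encode inhibitors of the cell cycle kinases and are often deleted in tumour lines, by the RefSeq table for GRCm38. Probes carry no gene names in the deposited arrays, and whether the deleted interval holds these genes was not analysed here.

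The second longest deep autosomal loss, chr13:109865791-110764728 (899 kb, 121 probes), was seen in P815 and not in the other families. P815 averaged -5.15, and 103 of the probes were not well above background, at least 12.7-fold below the reference. The Balb/C lines had 0.26 (CT26), -0.16 (4T1) and -0.46 (Renca), and the C57BI6 families lay between -0.28 and 0.15. P815 and the other 11 families did not overlap, and the limma comparison of bins called chr13:109000001-111000000 with a smallest adjusted p of 3.72e-10. Shorter deep losses of the same kind were chr2:141536798-141565830 (5 probes, -5.55, at least 11.04-fold lower), chr12:90224224-90268793 (8 probes, -5.46, at least 13.2-fold) and chr8:84363294-84496336 (13 probes, -4.83, at least 14.1-fold). In each of these, all other families lay between -0.48 and 0.68.

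**Figure D3:**
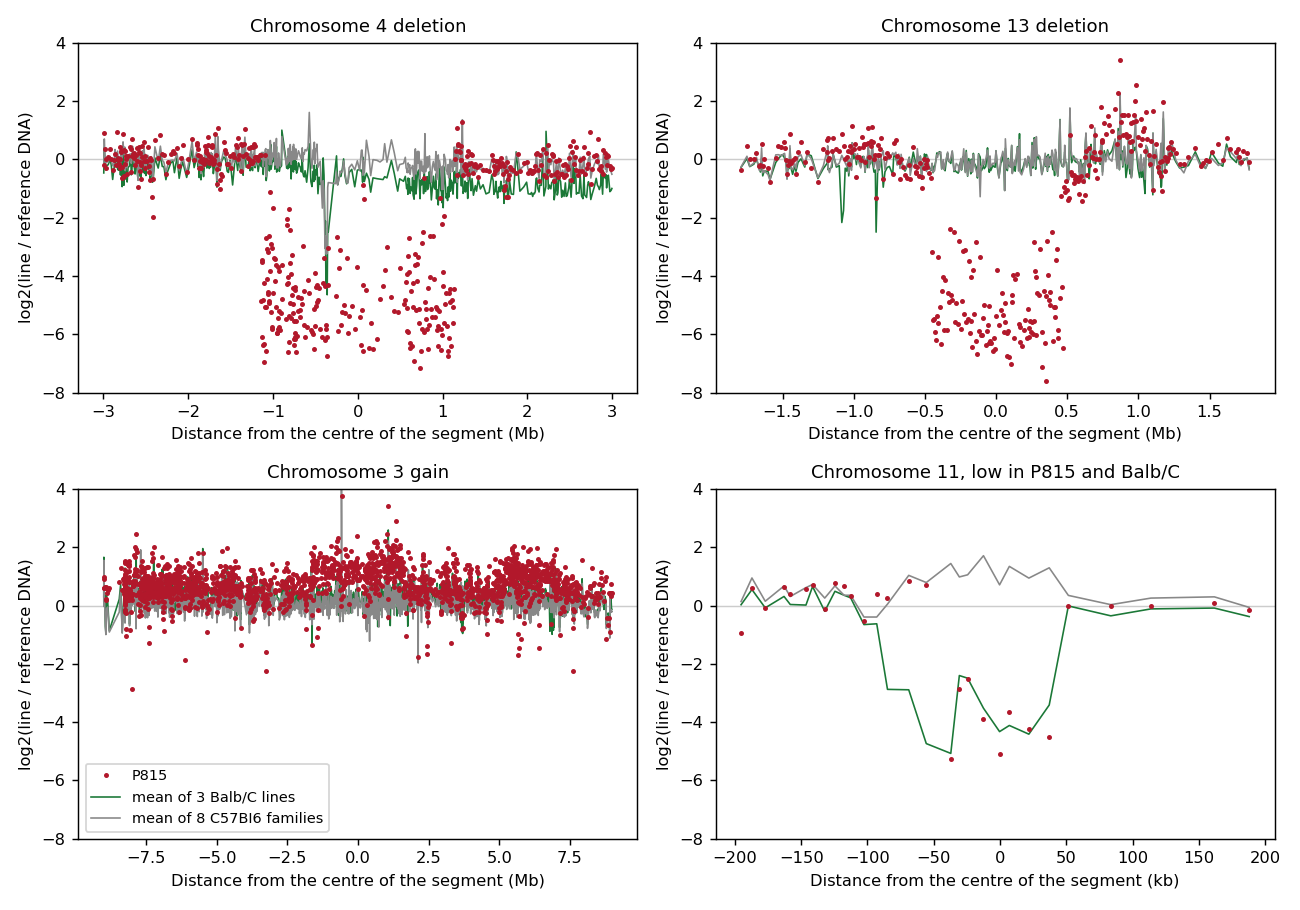
The 4 panels plot log2 ratios (y axis) against distance from the centre of the segment (x axis, Mb or kb), with P815 probes as red points, the mean of the 3 Balb/C lines as a green line and the mean of the 8 C57BI6 families as a grey line. P815 drops to a mean of -4.77 and -5.15 in the chromosome 4 and 13 deletions, rises to 1.24 in the chromosome 3 peak, and follows the Balb/C line, at about -4, on chromosome 11.

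The X chromosome of P815 also held deep losses, described here after their values were seen. At 11 segments, 194 probes and 2.78 Mb in all, P815 averaged between -5.64 and -3.79, below its X median of -0.97. The longest was chrX:9417664-10574269 (1157 kb, 77 probes) at -4.65, against -1.04 in Balb/C lines and -0.93 in C57BI6 families, and it adjoined chrX:10588128-11366136 at -5.38. In 10 of the 11 segments no other family lay at or below -2. The X median of -0.97 in P815, which is labelled female, was inside the range of the other families (-1.24 in Renca to -0.34 in ID8).

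Short losses were then counted as runs of at least 3 consecutive autosomal probes, each at or below -1. P815 had 788 such runs, the most of the 16 arrays, ahead of EL4 with 620 and B16F10 ATCC with 288. Of the 788, 271 lay inside the broad losses of chromosomes 10 and 14, where the typical probe already stood near -1, and 517 lay outside. A run was called shared with Balb/C when at least 2 of the 3 Balb/C lines and at most 1 C57BI6 family averaged -1 or lower over it, and shared across strains when at least 2 C57BI6 families did. By this rule 23 runs were shared with Balb/C, 18 were shared across strains, 667 were low in P815 alone and 80 were mixed. All 23 and all 18 lay outside the broad losses, as did 412 of the 667. Broad losses were single segments of 5 Mb or longer, so the stepped chromosome 7 loss, made of shorter segments, counted as outside. Some runs shared with Balb/C lay in it (chr7:56115424-56148773, chr7:60575414-60727473 and chr7:60783124-60838441). So did some low in P815 alone, such as chr7:57183782-57297264 (17 probes, -1.53).

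A stricter set, with each probe at or below -2, had 49 runs (498 probes) in P815, against 19 to 24 in the Balb/C lines and 1 to 16 in the C57BI6 arrays. Of these 49, 10 were shared with Balb/C, 2 were shared across strains, 28 were in P815 alone and 9 were mixed. The chromosome 4 deletion supplied 9 of the runs and 217 of the probes, and chromosome 12 supplied 7 runs. The pieces of the chromosome 4 deletion fell into 3 classes, so the counts are of runs and not of separate deletions. Among the 10 shared with Balb/C was a piece of it, chr4:90102764-90136251 (7 probes), with P815 at -4.92 and Balb/C at -1.15. No probe of that piece was lower in Balb/C than in C57BI6. Another of the 10, chr12:115704598-115725620, had -3.45 in P815 and -1.20 in Balb/C. Over chr4:88365091-90260923, the larger segment of the chromosome 4 deletion, P815 stood at -4.93, against -0.90 in CT26, -0.36 in 4T1 and -1.16 in Renca.

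**Figure D4:**
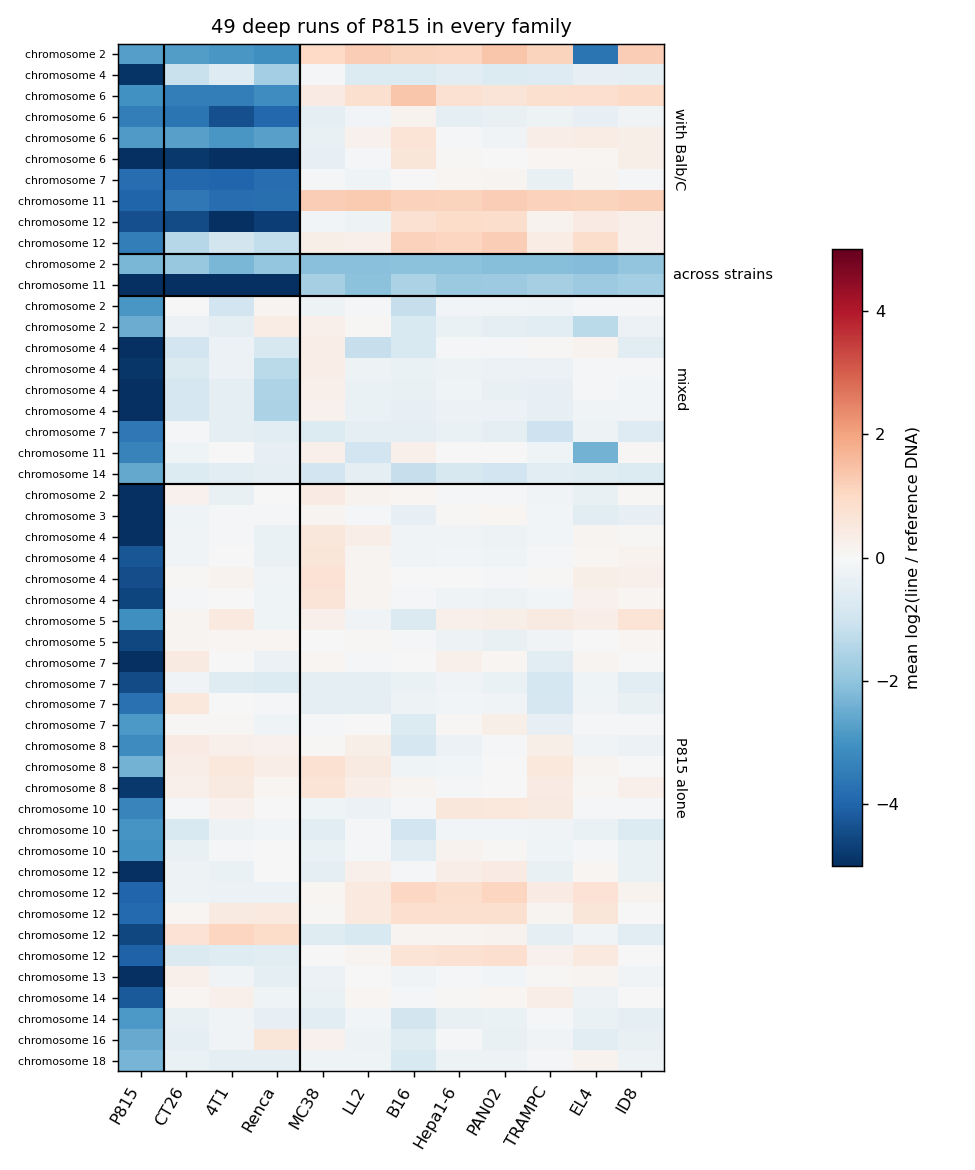
Each row (y axis, its chromosome) is 1 of the 49 P815 runs with every probe at or below -2, grouped by class, and each column (x axis) is a family, with P815 first, then Balb/C, then C57BI6; colour gives the mean log2 ratio. The upper 10 rows are blue in P815 and in most Balb/C cells and mostly pale or red in C57BI6, the next 2 are blue in every column, and the lowest 28 are dark only in P815.

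The comparison of Balb/C with C57BI6, which leaves P815 out of the difference, was read at the short runs. In limma, 5152 of 220233 autosomal probes differed (2.34%), 4358 lower in Balb/C (1.98%) and 794 higher (0.361%). Of the 99 probes in the 23 runs shared with Balb/C, 72 were lower in Balb/C (72.7%). Of the 2971 tested probes in runs of P815 alone, 60 were lower in Balb/C (2.02%). The Balb/C and C57BI6 values helped to choose both classes, so these 2 shares are descriptions. Over all 49 deep runs, chosen on P815 values without regard to other strains, 63 of 497 tested probes were lower in Balb/C (12.7%). Isolated P815 probes at or below -2 gave almost the same share, 172 of 1390 (12.4%). Of the 63, 33 were in runs shared with Balb/C. Another 18 were in mixed runs, all of them pieces of the chromosome 4 deletion, where P815 was far lower than Balb/C. Neighbouring probes of a deletion are counted one by one in these shares, so they are not shares of separate variants. The 3 Balb/C arrays were all scanned in the first of 2 scan batches. Within that batch, 2748 probes were lower and 432 higher in Balb/C than in C57BI6, and with batch as a block 2044 were lower and 334 higher.

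Runs shared with Balb/C were spread over several chromosomes. The classes of runs were chosen in part on Balb/C and C57BI6 values. The adjusted p-values given at runs of a class, here and below, therefore describe these runs and are no separate test. At chr11:71035484-71109796 (8 probes), P815 stood at -4.002, with CT26 at -3.58, 4T1 at -3.82 and Renca at -3.76. The 8 C57BI6 families lay between 1.10 and 1.30 there, and every one of the 8 probes was lower in Balb/C than in C57BI6 (limma, largest adjusted p = 3.21e-09). P815 was not well above background at any of the 8 probes. P815 thus lay below every C57BI6 family there, beside the Balb/C lines. The stretch lower in Balb/C began further out, at chr11:70987724-71109796 (11 probes), over which P815 averaged -2.75 and Balb/C -3.66, against 1.03 in C57BI6.

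At chr6:129980378-130019157 (8 probes), P815 had -2.78 and the Balb/C lines -3.11 ± 0.16 (SD, n = 3), against 0.29 ± 0.24 in C57BI6 families (SD, n = 8; limma, largest adjusted p = 8.93e-06). The neighbouring run chr6:130036380-130093404 (5 probes) had -2.54 in P815, -2.59 in Balb/C and 0.08 in C57BI6. At chr6:132609315-132622717 (3 probes), P815 fell to -5.71 and Balb/C lines to -5.42 ± 0.71 (SD, n = 3), against 0.09 ± 0.29 in C57BI6 families (SD, n = 8). At chr7:104370051-104419946 (7 probes), P815 had -3.51 and Balb/C -3.19, against -0.04 in C57BI6, with 6 of 7 probes lower in Balb/C. At chr4:121527786-121592446 (5 probes), P815 had -2.24 and Balb/C -2.005, while C57BI6 families stood at 3.29 ± 0.24 (SD, n = 8), above the reference DNA. On the P815 array, P815 was not well above background at any of the 5 probes and the reference at 2 of them, so -2.24 compares dim signals in part.

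Not every run placed in this class was so clear. At chr7:60575414-60727473, inside the stepped chromosome 7 loss, P815 had -2.34 against -1.01 in 4T1 and -1.14 in Renca, and only 1 of 7 probes was lower in Balb/C. At chr2:85937118-85946659 (3 probes), P815 had -2.77 and Balb/C -2.92, and EL4, of C57BI6, stood at -3.65 too.

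In runs shared across strains, P815 was below the reference DNA together with lines of C57BI6. At chr2:77680396-77792980 (12 probes), P815 had -2.06, with -1.91 ± 0.24 in Balb/C (SD, n = 3) and -1.96 ± 0.089 in C57BI6 (SD, n = 8), and no probe differed between the strains. At chr11:116564047-116586325 (6 probes), P815 had -4.98 and Balb/C -4.58, against -1.53 in C57BI6, so P815 was level with Balb/C at a deeper value. At chr7:37887916-37909600 (5 probes) it was the other way round: P815 had -1.89 and C57BI6 families -2.14 ± 0.25 (SD, n = 8), against -0.15 ± 0.34 in Balb/C (SD, n = 3), and all 5 probes were higher in Balb/C than in C57BI6 (limma, largest adjusted p = 4.87e-05).

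P815 was also read at every probe that separated Balb/C from C57BI6, which its own values had no part in choosing. Its log2 ratio was nearer to the Balb/C mean at 59.3% of the 4358 probes lower in Balb/C and at 48.2% of the 794 higher ones. At the lower probes the medians were -0.08 in P815, -0.51 in Balb/C and 0.60 in C57BI6. At the higher ones they were -0.02, 0.45 and -0.44. P815 thus lay near the reference level in both sets, between the strains, so these shares do not by themselves show shared variants. In runs of at least 3 consecutive such probes, P815 lay nearer Balb/C in 68 of the lower runs and nearer C57BI6 in 33, and nearer Balb/C in 12 of the higher runs and nearer C57BI6 in 18. The 68 include runs with P815 and Balb/C both near the reference, such as chr8:22726578-23016260 (0.10 and 0.31, against 2.52 in C57BI6). They also include chr4:90157445-90182286, inside the chromosome 4 deletion of P815 (-5.46, against -1.21 in Balb/C and -0.34 in C57BI6). These counts are therefore not counts of shared variants. Examples chosen after their values were seen were chr4:111887133-112114804 (15 probes), with P815 at -0.85 and Balb/C at -0.78 against C57BI6 at 3.55, and chr19:12246362-12301001 (9 probes), with P815 at 0.17 and C57BI6 at 0.43 against Balb/C at -2.94.

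Runs low in P815 alone were the largest class where another family counted as low at -1 (667, against 18 shared across strains). With that limit at -0.5, 260 were in P815 alone and 309 were shared across strains. With no second DBA/2 line and no normal DBA/2 DNA among the samples, a DBA/2 strain variant and a change acquired by the tumour cannot be told apart. Of the 28 deep runs in this class, the chromosome 13 deletion was the longest, and most were short, with a median of 17.3 kb. Chromosome 12 had several close together between chr12:114169990-114218656 (6 probes, -3.96) and chr12:116144111-116163620 (3 probes, -4.04). In the same stretch, chr12:115480968-115498781 was shared with Balb/C (-4.41 in P815, -4.76 in Balb/C, 0.37 in C57BI6), so neighbouring runs there fell into different classes. At chr2:74466997-74511106 (15 probes), in P815 alone by the -1 limit, P815 averaged -2.33. The lowest of the others there were 4T1 (-0.62) and B16 (-0.83). Its stretch with each probe at or below -2, chr2:74498202-74511106 (7 probes, P815 at -2.93), was classed as mixed. B16 stood at -1.14 and 4T1 at -0.94 in that stretch.

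Isolated probes carried most of the low values. P815 had 2127 autosomal probes at or below -2, of which 1393 had no low neighbour, 236 were in pairs and 498 in runs. Of 2122 such probes measured in every family, 1827 (86.1%) were low in no other family. The other arrays had 48 to 826 such probes, and the Balb/C lines 445 (CT26), 461 (4T1) and 453 (Renca). With noise as high as in P815 (0.39), PAN02 (0.40) had 48 low probes, B16F0 ATCC (0.40) had 79 and TRAMPC2 (0.41) had 63. The 826 were on B16F10 ATCC, while the other 3 B16 arrays had 72 to 125, so arrays of closely related sublines differed in this count; the part of array quality in the P815 count was not tested.

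**Figure D5:**
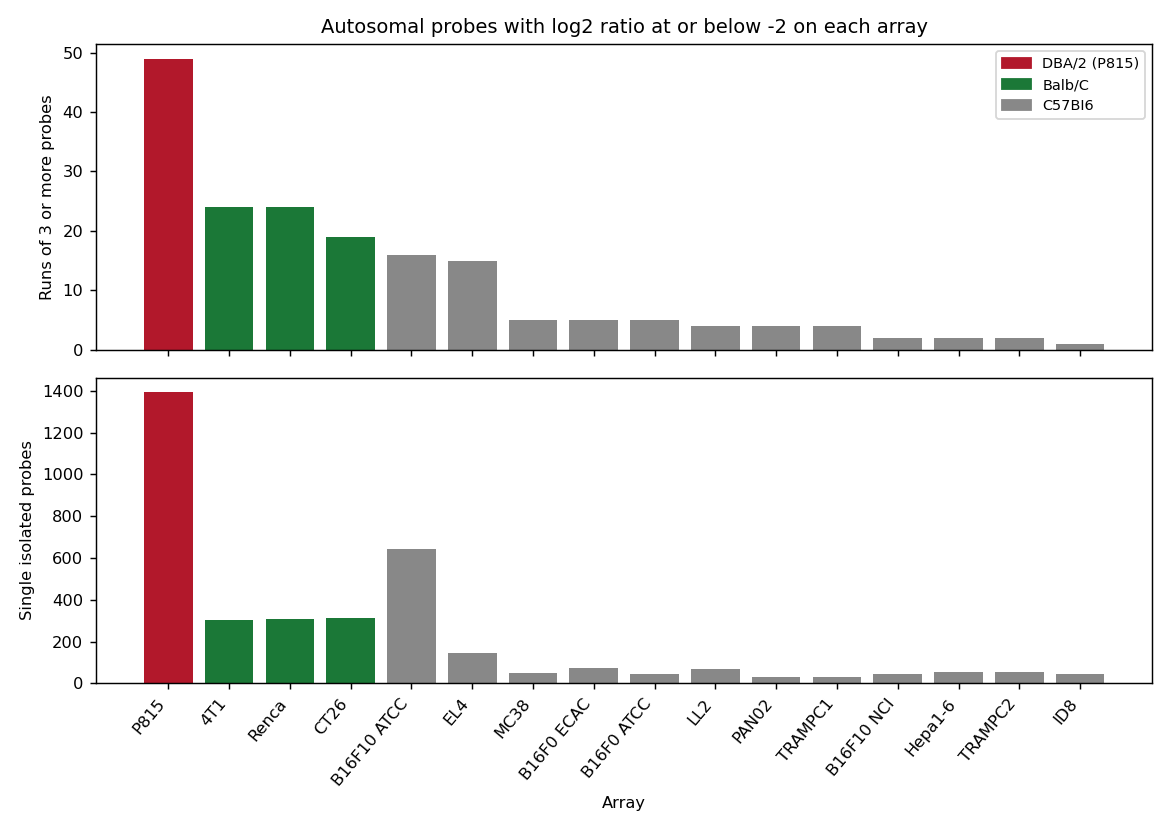
Bars give, for each array (x axis, coloured by strain), the number of runs of at least 3 autosomal probes at or below -2 (upper panel) and the number of isolated probes at or below -2 (lower panel). P815 is highest in both (49 runs and 1393 probes), and the Balb/C lines (19 to 24 runs, 304 to 311 probes) stand above every C57BI6 array in runs (1 to 16) and above all but B16F10 ATCC (641) in isolated probes.

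Probe by probe, 12348 of 220233 probes differed between P815 and C57BI6 families by limma (5.61%), 10494 lower in P815 (4.76%) and 1854 higher (0.842%). With mode centring, 9113 were lower and 607 higher. Of the 10494 lower ones, 1986 (18.9%) were inside the broad losses and 8508 outside. Against the Balb/C lines, 8879 differed (4.03%), 7179 lower in P815 (3.26%) and 1700 higher (0.772%), and with mode centring 5273 were lower and 903 higher. Of the probes lower in P815 than in C57BI6, 6625 (63.1%) were lower than in Balb/C too, but both comparisons share the P815 array. P815 was in scan batch 2. Within that batch, 7802 probes were lower in P815 than in C57BI6 and 879 higher. With normexp background correction, 5 probes were called against C57BI6 and none against Balb/C (5510 at an unadjusted p under 0.05). No batch held both P815 and a Balb/C line; with batch as a block, 3118 probes were lower in P815 than in Balb/C and 528 higher.

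High runs, with at least 3 consecutive probes at or above 1, numbered 194 in P815. Of these, 125 were in P815 alone, 31 were shared across strains, 38 were mixed and none was shared with Balb/C. P815 thus had fewer high runs than low ones, and among segments shorter than 5 Mb it had 26 gains and 79 losses.

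Genes of mast cells and of common tumour pathways could be placed only by chromosome, through the RefSeq table for GRCm38, and the values below are those of chromosomes, not of genes. Of 15 mast cell genes, 2 lay on a chromosome with most of its probes gained: Fcer1a, the alpha chain of the high-affinity IgE receptor, and Il1rl1, the receptor of interleukin 33, both on chromosome 1 (68.0% gained). Chromosome 1 was the only chromosome mostly gained and held 16202 of the 220668 autosomal probes. The median chromosome value of the mast cell list was -0.044, the same as over all autosomes, so the list did not stand apart. Kit is on chromosome 5 (42.9% gained), and Mitf and Gata2, transcription factors needed by mast cells, are on chromosome 6 (32.3%). The protease genes Cma1 and Mcpt4 are on chromosome 14 (20.2% lost), and Srgn, which encodes the granule proteoglycan core serglycin, is on chromosome 10 (24.6% lost). Il3ra is on chromosome 14 too, and Cpa3 is on chromosome 3. Tpsb2 and Tpsab1 (chromosome 17), Ms4a2 (19), Hdc (2) and Mrgprb1 (7) are on chromosomes with at most 6.95% of probes lost and 1.43% gained. Among 12 tumour genes, Nras and Tet2 are on chromosome 3 (16.2% gained), Rb1 on chromosome 14 and Myc on chromosome 15 (no probe in a gain or loss). Whether any of these genes lies in a gained or lost segment was not analysed here.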

How the data were processed

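DNA of each line (red dye) and 1 commercial mouse genomic DNA (green dye) were hybridised together on 2-colour Agilent arrays with mm8 probe positions. The deposited files hold processed intensities per spot, background-subtracted and dye-normalised by Agilent Feature Extraction 10.7.3.1, per the file headers. They also hold a log10 ratio of red over green, per the file headers, used only to check the direction: it matched the processed intensities at 99.94% of P815 spots within 0.001. The deposited value table holds log2 ratios of the same arrays, which differed from the P815 ratio by at most 5.05e-05; its median for P815 was 0.0427, and its 15 other columns were not used.

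Here, log2 ratios of processed intensities were taken without control and outlier spots, probe repeats were averaged, and each array was centred on its autosomal median. Of 235402 probes, 1940 had no position and 250 an unplaced one. Segments of at least 5 probes came from penalised change points (penalty 6 times the noise variance times the log of the probe number). Arrays of a family were averaged, and 12 family means entered limma 3.58.1 in R 4.3.3, with Benjamini-Hochberg adjustment and calls at 0.05; other steps used Python 3.11.15. The fit was tested on simulated data with noise drawn separately for each probe and P815 varying as the other families do. That simulation held no changes spanning neighbouring probes, so it does not show how the fit behaves with such changes or a wider P815 spread. A fold written as "at least" sets P815 at the higher of its own signal and the lowest signal among its probes well above background. Each line is 1 culture, so p-values measure the spread between lines. Scan dates in the headers gave 2 batches, and P815 shared none with a Balb/C line.

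Positions named were the 10 largest broad segments each way, the 5 highest and 5 lowest short segments, the 8 longest runs of each class, the 5 longest high runs and all chromosomes by their median; others named were chosen after their values were seen, including those at or below -2, those on X and those read from the bins. Members and gene lists were chosen with earlier results of these data known. The background alternative used median signals, since no mean signals are in the files, against the plan to use means. Other alternatives were mode centring, other thresholds, run lengths and penalties, batch as a block, and leaving out lines.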

Additional observations from a re-analysis of the deposited data

Results flagged for a closer look

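At 5 of 53 positions named for P815, 1 of the 8 C57BI6 families stood apart from the other families of its strain by more than Dixon's 95% criterion allows; chance flags about 1 in 20 groups. B16 had 0.77 at chr6:33680577-40983869, where the next highest family had 0.37. B16 had 0.73 at chr6:45368673-52085359, next to 0.31; P815 had 0.57 at the first position and 0.77 at the second. ID8 had 0.26 at chr5:67040824-104688047, where P815 had 0.44 and the next family -0.07. EL4 had -0.29 at chr6:41184657-41243624, where P815 had 1.45 and the next lowest family 0.54. B16 had -0.83 at chr2:74466997-74511106, where P815 had -2.33 and the next lowest family -0.18.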

How the results depend on the processing

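Replacing the processed signals by normexp-corrected ones changed the most: it shrank the SD of P815 over autosomal probes to 0.17, against 0.64, and left 5 probes called between P815 and C57BI6, 0 between P815 and Balb/C (5510 at an unadjusted p under 0.05, limma), 1291 between Balb/C and C57BI6, and 0 bins (12 at an unadjusted p under 0.05). It gave 0.895% gained, 0.252% lost, 5 low runs (0 shared with Balb/C, 1 alone, 4 across strains) and 1 high run. All 24 named segments kept their sign at much smaller sizes. The 4 broad losses stood at -0.20 to -0.17, short of the -0.3 limit, and the 10 broad gains at 0.16 to 0.31. The 5 lowest short segments stood at -1.47 to -0.28, with chr13:109865791-110778211 at -0.35 instead of -5.11. The depths and the folds written as "at least" therefore hold for the processed signals only. Normexp changed the arrays unevenly. The SD fell from 0.44 to 0.096 in B16F0 ECAC, from 0.50 to 0.12 in PAN02 and from 0.52 to 0.14 in TRAMPC2. It rose from 0.49 to 0.54 in MC38 and from 0.48 to 0.50 in 4T1. P815 was thus set on a narrower scale than some of the arrays it was compared with. The part of this in the loss of calls, and the cause of the shrinkage, were not tested. With batch as a block, 3646 probes differed between P815 and Balb/C and 2378 between Balb/C and C57BI6; within scan batch 1, 3180 differed between Balb/C and C57BI6. Bins numbered 46 with mode centring and 37 at 2 Mb. Thresholds of 0.2 and 0.5 gave 14.8% and 4.94% gained, 6.85% and 3.61% lost; a doubled penalty gave 10.72% and 3.60%. Runs of at least 2 probes gave 2025 low runs (59 shared with Balb/C, 1715 alone, 53 across) and 698 high ones; runs of at least 5 gave 183 (9, 151 and 4) and 49. Probes at or below -2 gave 49 (10, 28 and 2). Calling another family low at -0.5 gave 42, 260 and 309, so that runs shared across strains outnumbered those in P815 alone, as they also did with normexp. Outside broad losses there were 517 runs, 412 of them alone. Leaving out each Balb/C line gave 7359 to 8175 probes between P815 and Balb/C, 11857 to 13039 between P815 and C57BI6, 3760 to 4249 between Balb/C and C57BI6, 67 to 89 bins, 20 to 21 runs shared with Balb/C, 670 to 675 alone and 18 across strains. No paired analysis was possible because P815 has 1 array and numbers do not link lines of different strains. With 1 array and no other DBA/2 DNA, a strain variant and an acquired change cannot be told apart, and losses of fewer than 3 probes are not resolved.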
